A study of Homo sapiens with 9 samples.

Results

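The genes described here are 10 transcription factors that mark progenitor domains of the neural tube from dorsal to ventral: MSX1, PAX3, PAX7, GSX2, DBX1, DBX2, IRX3, PAX6, NKX6-1 and OLIG2. They were chosen by name, without use of their measured values. Of the 10, 9 were among the 31589 genes listed in at least 1 of the 3 deposited tables, and GSX2 was not analysed here. Messenger RNA of spinal cord organoids (SCOs) was counted in 9 bulk RNA sequencing libraries, 3 for each of 3 conditions. SCOs are aggregates grown from the human induced pluripotent stem cell line WTC. All conditions share this line, into which the study had edited a SOX10 reporter (clones C2, C36 and C40), whereas the labels give the genotype as WT. Vehicle SCOs received FGF alone. VPA SCOs received FGF, per the study's results, together with valproic acid, an inhibitor of histone deacetylases. The dose of valproic acid is given as 2 mM in the study's results and 1 mM in its methods. VPA + Rapamycin SCOs also received Rapamycin, an inhibitor of mTOR, at 200 nM per the methods. The exposure is 96 h in the labels and 72 h in the study's text. RNA came from 5 to 7 pooled whole organoids, which hold neural crest derivatives beside the neural tube, and the study describes the libraries of a condition as those of its clones. The labels give replicates 1, 2 and 3 of every condition the shared codes C4, C5 and C6, which they do not tie to the clone names. The p-values measure the spread between these libraries of a single parental line.

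In the developing spinal cord, BMP and WNT signals from the roof plate and Sonic hedgehog from the floor plate divide the progenitors into stripes along the dorsoventral axis. Each stripe expresses its own combination of homeodomain and basic helix-loop-helix factors, and factors of neighbouring stripes repress each other, which sharpens the borders. The stripes later give rise to different classes of interneurons and to motor neurons.

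Libraries held 15290299 to 17417338 reads counted on genes, and a count of 3 corresponded to 0.172 to 0.196 CPM (counts scaled to library size with TMM factors over the 9 libraries). Trunk HOX genes were present in every library, with a summed level of 543 to 1297 CPM over 10 genes. OTX2, which marks forebrain and midbrain, had at most 3 counts. Vehicle replicate 3 stood apart from the other vehicle libraries, with a chi-square of the counts of 18.5 and 40.9 per gene against 14 between the others. Its trunk HOX sum was 713 CPM against 1276 and 1297 CPM, and EN2, a gene of the midbrain and hindbrain, had 1346 counts against 113 and 47. The other markers of forebrain, midbrain and eye, LHX5 apart, had at most 13 counts in vehicle. The other within-condition pairs gave 4.8 to 14.9 per gene. Results that rest on vehicle replicate 3 are therefore given with and without it.

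The level of a factor per kilobase of annotated gene length put DBX1 at the head of the order in vehicle SCOs, at 163 ± 27.8 CPM per kb (SD, n = 3). It was followed by NKX6-1 (44.6 ± 14.9), IRX3 (35.8 ± 7.72), PAX6 (15 ± 0.251), OLIG2 (4.56 ± 3.66), DBX2 (3.84 ± 0.203), MSX1 (3.41 ± 0.87), PAX3 (0.987 ± 1.15) and PAX7 (0.48 ± 0.697). The factors of the dorsal end were thus the lowest of the set, and those of the middle and of the ventral side the highest. Libraries overlapped between NKX6-1 and IRX3, between OLIG2 and DBX2, between DBX2 and MSX1, and between PAX3 and PAX7. The other neighbours in the order did not overlap. The position of PAX6 rests on its annotated length of 20812 bases, since without division by length only 3 of the 9 factors kept their rank. In VPA SCOs the per-length order became DBX1, IRX3, NKX6-1, PAX6, DBX2, MSX1, OLIG2, PAX3 and PAX7. Libraries overlapped there between MSX1 and OLIG2 and between OLIG2 and PAX3. DBX2 stood at 8.87 ± 0.776 CPM per kb and OLIG2 at 0.935 ± 1.34 CPM per kb. In VPA + Rapamycin SCOs NKX6-1 (42.7 ± 10.9 CPM per kb) and IRX3 (45.5 ± 5.65 CPM per kb) overlapped again. OLIG2 (5.92 ± 8.3 CPM per kb) overlapped with DBX2 (5.91 ± 1.6 CPM per kb) and with PAX6 (13.9 ± 0.354 CPM per kb), and PAX3 with PAX7.

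The comparison of VPA with vehicle asks how the exposure changes the make-up of SCOs. DBX1 and DBX2, factors of the intermediate neural tube, and IRX3, whose range is broader, rose, and the ventral factor NKX6-1 fell. These 4 of the 9 factors tested passed an adjusted p of 0.05 (edgeR's quasi-likelihood test, Benjamini-Hochberg adjustment over 17360 genes), 3 of them higher and 1 lower. Across all genes 32.1% were called, 16.4% higher and 15.7% lower. MSX1, PAX3, PAX7, PAX6 and OLIG2 did not pass. The same 4 factors were those whose vehicle and VPA libraries did not overlap, a pattern shared by 47.5% of all genes tested. The median log2 fold change of the 9 factors was -0.73, against 0 for all genes. This median rests on vehicle replicate 3, since without that library the middle value was -0.03, that of PAX6. The count stayed at 4 without vehicle replicate 3 and reached 7 without vehicle replicate 1. The share of all genes called without these libraries is not given here, so the changes in count are not read as particular to the factors.

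The comparison of VPA + Rapamycin with VPA asks what Rapamycin changes in the presence of VPA. NKX6-1 rose, and DBX2 and IRX3 fell. They were 3 of the 8 factors tested, where 6.74% of 17317 genes were called, 3.01% higher and 3.73% lower. PAX7 did not pass the filter on low counts in this pair. Libraries of the conditions did not overlap for DBX1, DBX2, IRX3, PAX6 and NKX6-1, as for 25.4% of all genes tested. The median log2 fold change of the 8 factors was -0.21, against 0 for all genes. All 3 comparisons share libraries in pairs, so the VPA libraries enter both of these changes.

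The comparison of VPA + Rapamycin with vehicle asks how far SCOs given both compounds differ from those given FGF alone. None of the 9 factors tested passed with edgeR, where 19.0% of 17383 genes did (9.81% higher and 9.22% lower). An unadjusted p under 0.05 was reached by 3 of them, PAX3, PAX7 and DBX2, and DESeq2 called 1, DBX2. Libraries did not overlap for DBX2 and PAX6, as for 38.4% of all genes tested. The median log2 fold change of the 9 factors was -0.07, against 0 for all genes. Without vehicle replicate 3 the middle value was 0.14, that of DBX1. An adjusted p above the threshold in 3 libraries against 3 does not show that a factor had its vehicle level.

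**Figure D1:**
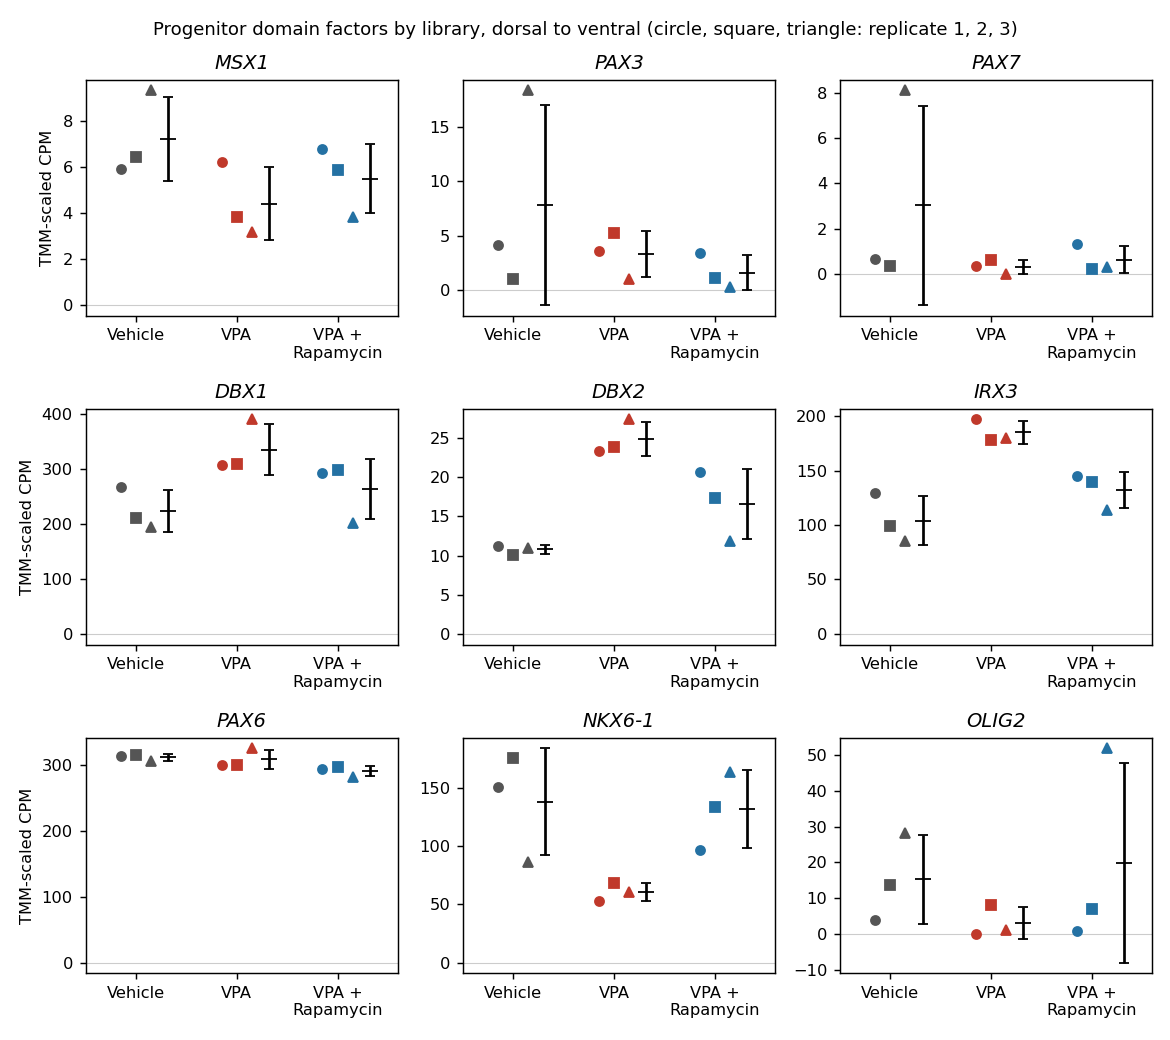
Level of each factor in each library as TMM-scaled CPM (vertical axis, linear) by condition, with circles, squares and triangles for replicates 1, 2 and 3 and the mean ± SD at the right of each condition (n = 3). VPA libraries of DBX1, DBX2 and IRX3 lie above those of vehicle and VPA libraries of NKX6-1 lie below them, while PAX3, PAX7 and OLIG2 spread over a wide range within a condition.

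MSX1, a homeodomain target of BMP signals in the roof plate and the dorsal stripes (chr4:4859666-4863936, plus strand, GRCh38, as for all gene positions here), was measured at 5.92, 6.45 and 9.35 CPM in vehicle replicates 1, 2 and 3. It stood at 6.21, 3.83 and 3.18 CPM in the VPA libraries and at 6.78, 5.88 and 3.84 CPM in the VPA + Rapamycin libraries. VPA replicate 1 reached the vehicle range and the other VPA libraries lay below it, so the conditions overlapped. The log2 fold change was -0.73 ± 0.29 (SE) for VPA against vehicle (edgeR adjusted p = 0.0795). It was 0.33 ± 0.27 for VPA + Rapamycin against VPA (edgeR adjusted p = 0.532) and -0.40 ± 0.27 for VPA + Rapamycin against vehicle (edgeR adjusted p = 0.325). The call depends on single libraries, with an adjusted p of 0.039 without vehicle replicate 1 and 0.0353 without VPA replicate 1, and -0.49 on the log2 scale without vehicle replicate 3.

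PAX3, a paired-box factor of the dorsal neural tube and of neural crest precursors (chr2:222199888-222298996, minus strand), stood at 4.2, 1.05 and 18.3 CPM in vehicle, 3.64, 5.24 and 1.08 CPM in VPA and 3.45, 1.16 and 0.315 CPM in VPA + Rapamycin. Vehicle replicate 3 was the highest of the 9 libraries and VPA + Rapamycin replicate 3 the lowest. The conditions overlapped in every comparison. For VPA against vehicle the log2 fold change was -1.26 ± 0.77 (edgeR adjusted p = 0.237) and turned to 0.31 without vehicle replicate 3. For VPA + Rapamycin against vehicle it was -2.26 ± 0.89 (edgeR adjusted p = 0.0989), and -0.69 without vehicle replicate 3. For VPA + Rapamycin against VPA it was -1 ± 0.56 (edgeR adjusted p = 0.324). A call appeared without VPA + Rapamycin replicate 1 in that pair (adjusted p = 0.0291), and without vehicle replicate 2 in VPA + Rapamycin against vehicle (adjusted p = 0.0417). CCDC140, which overlaps PAX3 on the other strand, had 5.71% of its counts.

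PAX7, the close relative of PAX3 in the dorsal stripes (chr1:18631006-18748866, plus strand), had 11, 5 and 131 counts in vehicle, 6, 10 and 0 counts in VPA and 22, 4 and 5 counts in VPA + Rapamycin. Almost all of its vehicle counts came from replicate 3. The 0 counts of VPA replicate 3 allow a level of up to 0.172 CPM, for counting error only. The log2 fold change of VPA against vehicle was -3.23 ± 1.15 (edgeR adjusted p = 0.0504), and -0.62 without vehicle replicate 3. For VPA + Rapamycin against vehicle it was -2.29 ± 1.04 (edgeR adjusted p = 0.147), and 0.32 without that library. Without vehicle replicate 1 both changes passed (adjusted p = 0.0113 and 0.0485), and without vehicle replicate 2 that of VPA against vehicle did (adjusted p = 0.028). PAX3 and PAX7 thus had their highest values in a library in which the summed list of other dorsal factors and EN2 were also high, whose part in the values was not tested.

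DBX1 marks the stripe on the ventral side of the dorsoventral midline, whose progenitors make V0 interneurons. Its gene lies at chr11:20156155-20160613 on the minus strand. DBX1 and NKX6-1 head the level order in vehicle SCOs and moved to opposite sides in VPA, so the stretches around their start sites are shown. They come from RefSeq (GRCh38.p14), run from 250 bases before to 50 bases after the start and are written 5' to 3' on the minus strand, at chr11:20160426-20160725 for DBX1 and chr4:84499243-84499542 for NKX6-1. Capitals mark CCAAT boxes, read as ATTGG where they lie on the opposite strand, and the letters TATAAA.
DBX1: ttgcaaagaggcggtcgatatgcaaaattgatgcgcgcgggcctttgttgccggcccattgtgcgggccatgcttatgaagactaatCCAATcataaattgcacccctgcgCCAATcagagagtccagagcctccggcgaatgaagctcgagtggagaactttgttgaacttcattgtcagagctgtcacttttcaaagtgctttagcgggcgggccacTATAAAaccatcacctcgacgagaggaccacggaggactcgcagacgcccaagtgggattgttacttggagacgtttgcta
NKX6-1: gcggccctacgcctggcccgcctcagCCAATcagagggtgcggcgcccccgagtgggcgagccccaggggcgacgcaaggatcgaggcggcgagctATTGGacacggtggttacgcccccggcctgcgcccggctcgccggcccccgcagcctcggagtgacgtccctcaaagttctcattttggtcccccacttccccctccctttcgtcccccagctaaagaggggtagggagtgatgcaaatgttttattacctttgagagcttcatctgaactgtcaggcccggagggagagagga
The DBX1 stretch holds TATAAA at -31 to -26 and CCAAT at -163 to -159 and at -139 to -135, counted from the start site. The NKX6-1 stretch holds CCAAT at -224 to -220 and, on the opposite strand, at -154 to -150, and no TATAAA. GC content is 52.0% with 19 CpG for DBX1 and 65.0% with 24 CpG for NKX6-1. Searched on both strands, CCAAT occurs in 34.6% and TATAAA in 11.5% of the 35116 RefSeq promoter stretches of the same length. RefSeq entries were found for 7 of the 10 factors, 15 stretches in all, of which 8 hold CCAAT and 2 hold TATAAA (those of DBX1 and GSX2). TGANTCA, the core of AP-1 sites, is found in 0 of the 15 and in 7.71% of all stretches. The start site used by RefSeq for NKX6-1 lies outside the gene as annotated in the deposited tables, which ends at 84498450.

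DBX1 was measured at 268, 211 and 194 CPM in vehicle, 308, 310 and 391 CPM in VPA and 294, 298 and 202 CPM in VPA + Rapamycin. All VPA libraries lay above all vehicle libraries, and the VPA + Rapamycin libraries lay below VPA, with replicate 3 within the vehicle range. DBX1 was 1.5-fold higher in VPA than in vehicle, a log2 fold change of 0.57 ± 0.14 (edgeR adjusted p = 0.00887). Without VPA replicate 3 the change was 0.46 with an adjusted p of 0.0544, and the call was also lost with a log2 fold change limit of 1. For VPA + Rapamycin against VPA the log2 fold change was -0.34 ± 0.12 (edgeR adjusted p = 0.0949), and it passed the threshold without VPA + Rapamycin replicate 1 (adjusted p = 0.0461) or replicate 2 (adjusted p = 0.0361). Against vehicle, VPA + Rapamycin gave 0.23 ± 0.16 (edgeR adjusted p = 0.361).

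DBX2, the paralog of DBX1 with a wider stripe (chr12:45014672-45051099, minus strand), was measured at 11.2, 10.1 and 11 CPM in vehicle. It stood at 23.4, 23.9 and 27.4 CPM in VPA and at 20.7, 17.3 and 11.8 CPM in VPA + Rapamycin. The vehicle libraries were close together, the VPA libraries stood well above them, and the VPA + Rapamycin libraries fell between those groups without touching either. DBX2 was 2.31-fold higher in VPA than in vehicle, with a log2 fold change of 1.20 ± 0.15 (edgeR adjusted p = 0.000202). This call held in 14 of 14 alternatives and with the limit of 1, with changes of 1.12 to 1.25. It fell by 0.58 ± 0.16 on the log2 scale in VPA + Rapamycin against VPA (edgeR adjusted p = 0.0312). This call was lost when VPA replicate 1 (adjusted p = 0.0573), 2 (0.0793) or 3 (0.121) or VPA + Rapamycin replicate 3 (0.133) was left out, each in turn, with all 9 libraries in a single fit (0.159) and with the limit of 1. Against vehicle, VPA + Rapamycin gave 0.61 ± 0.21 (edgeR adjusted p = 0.0597), and 0.81 with an adjusted p of 0.0285 without VPA + Rapamycin replicate 3. The ratio of DBX2 to DBX1 within a library, as log2 CPM, was -4.36 ± 0.21 (SD, n = 3) in vehicle, -3.75 ± 0.07 under VPA and -4 ± 0.16 with Rapamycin added. The ratio was higher in all VPA libraries than in any vehicle library.

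IRX3, an Iroquois factor found from the dorsal stripes down to the border of the motor neuron domain (chr16:54283304-54286763, minus strand), was measured at 129, 98.7 and 84.9 CPM in vehicle. The VPA libraries held 197, 178 and 180 CPM, and the VPA + Rapamycin libraries 145, 139 and 114 CPM. All VPA libraries were above all other libraries, whereas vehicle replicate 1 reached into the VPA + Rapamycin range. IRX3 was 1.78-fold higher in VPA than in vehicle, with a log2 fold change of 0.82 ± 0.14 (edgeR adjusted p = 0.00146). The call held in 14 of 14 alternatives that leave the fold free and was lost with a log2 fold change limit of 1. It fell by 0.48 ± 0.09 on the log2 scale in VPA + Rapamycin against VPA (edgeR adjusted p = 0.00263), and this call was lost with all 9 libraries in a single fit (adjusted p = 0.13) and with the limit of 1, and held in the 13 other alternatives. Against vehicle, VPA + Rapamycin gave 0.34 ± 0.16 (edgeR adjusted p = 0.151), and 0.52 with an adjusted p of 0.0132 without vehicle replicate 1.

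PAX6, a paired-box factor that is broad in neural progenitors and graded along the axis (chr11:31784779-31818062, minus strand), had the steadiest level of the set. It was measured at 314, 315 and 306 CPM in vehicle, 300, 300 and 325 CPM in VPA and 293, 296 and 282 CPM in VPA + Rapamycin. The VPA + Rapamycin libraries lay below all others, and VPA and vehicle overlapped. The log2 fold changes were -0.03 ± 0.09 for VPA against vehicle (edgeR adjusted p = 0.851) and -0.08 ± 0.07 for VPA + Rapamycin against VPA (edgeR adjusted p = 0.532). VPA + Rapamycin stood at 93.1% of the vehicle mean, a log2 fold change of -0.11 ± 0.09 (edgeR adjusted p = 0.432), and 0 of 14 alternatives passed. The exact two-sided permutation p for that difference in CPM was 0.1, the smallest that 3 libraries against 3 can give. Any factor without overlap of libraries reaches that value. ELP4 on the other strand had 9.12% of the PAX6 counts and PAUPAR 1.77%.

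NKX6-1, a homeodomain factor that Sonic hedgehog induces in the ventral stripes (chr4:84491987-84498450, minus strand), was measured at 151, 176 and 86.7 CPM in vehicle. VPA libraries held 53.2, 68.7 and 60.9 CPM, and VPA + Rapamycin libraries 96.8, 134 and 164 CPM. The VPA libraries were below all others, and the VPA + Rapamycin libraries lay within the vehicle range. NKX6-1 in VPA was at 44.2% of its vehicle mean and fell by 1.19 ± 0.21 on the log2 scale (edgeR adjusted p = 0.00185). Without vehicle replicate 3, its lowest vehicle library, the log2 fold change was -1.43. In VPA + Rapamycin it was 2.16-fold higher than in VPA, with a log2 fold change of 1.11 ± 0.14 (edgeR adjusted p = 8.3e-05), rank 28 of the 17317 genes by p. Both calls held in 14 of 14 alternatives and with the limit of 1. Against vehicle, VPA + Rapamycin gave -0.07 ± 0.24 (edgeR adjusted p = 0.862), and -0.32 without vehicle replicate 3.

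OLIG2, the basic helix-loop-helix factor of the motor neuron domain (chr21:33025845-33029196, plus strand), was measured at 3.85, 13.8 and 28.2 CPM in vehicle. VPA libraries held 0, 8.27 and 1.14 CPM, and VPA + Rapamycin libraries 0.833, 6.93 and 51.8 CPM. Levels within a condition spread more than those of NKX6-1, with VPA + Rapamycin replicate 3 highest and VPA replicate 1 at 0 counts, which allows up to 0.179 CPM. The log2 fold change was -2.31 ± 0.94 for VPA against vehicle (edgeR adjusted p = 0.0805), and -1.50 without vehicle replicate 3. Without VPA replicate 2 it was -4.71 with an adjusted p of 0.0102, and without vehicle replicate 1 it was -2.77 with an adjusted p of 0.0131. For VPA + Rapamycin against VPA it was 2.68 ± 0.93 (edgeR adjusted p = 0.092), and 0.32 without VPA + Rapamycin replicate 3. It passed the threshold without VPA replicate 2 (5.07), VPA + Rapamycin replicate 1 (3.24) or VPA + Rapamycin replicate 2 (3.08). With the replicate number as a block, OLIG2 passed in both of these comparisons, at -2.91 (edgeR adjusted p = 0.00214) and 2.39 (edgeR adjusted p = 8.51e-05). It was lower in VPA than in vehicle for each replicate number. In both of these comparisons its fitted values had the signs of those of NKX6-1, and its call depended on the block and on single libraries. Against vehicle, VPA + Rapamycin gave 0.36 ± 0.96 (edgeR adjusted p = 0.826), where NKX6-1 gave -0.07. This OLIG2 value was 1.17 without vehicle replicate 3 and -1.98 without VPA + Rapamycin replicate 3. In bulk RNA, fewer cells of a stripe and less RNA of the factor per cell cannot be told apart, for OLIG2 and for every other factor here.

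**Figure D2:**
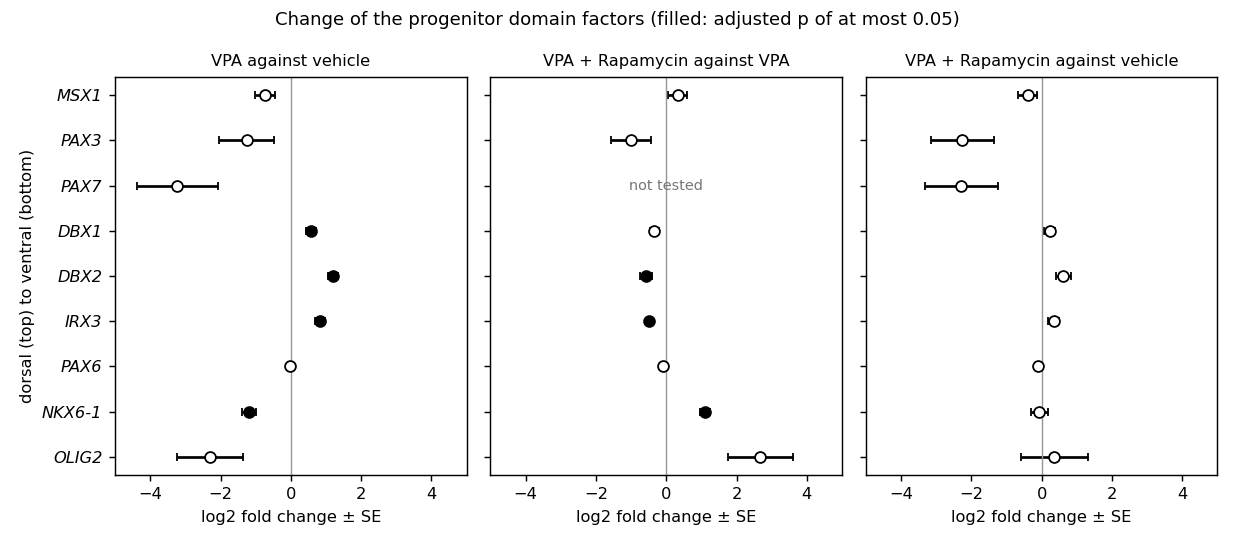
Log2 fold change of each factor (horizontal axis, bars are ± SE, 3 libraries per condition) in the 3 comparisons, ordered from dorsal at the top to ventral at the bottom, with filled points at an adjusted p of at most 0.05 (edgeR). DBX1, DBX2, IRX3 and NKX6-1 are filled in VPA against vehicle, DBX2, IRX3 and NKX6-1 in VPA + Rapamycin against VPA, and none in VPA + Rapamycin against vehicle.

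Across the 9 libraries DBX1, DBX2 and IRX3 followed each other, as seen in the map of levels relative to each factor's own mean. Pearson's r of log2 CPM was 0.9 between DBX1 and DBX2, 0.9 between DBX1 and IRX3 and 0.91 between DBX2 and IRX3. NKX6-1 ran opposite to DBX2 (-0.81) and IRX3 (-0.67), and OLIG2 opposite to IRX3 (-0.75). These values describe 9 libraries of 3 conditions, so they hold the differences between conditions given above. Within VPA + Rapamycin, replicate 3 had the lowest DBX1, DBX2 and IRX3 and the highest NKX6-1 and OLIG2 of the condition. Within vehicle, NKX6-1 was lowest in replicate 3, where OLIG2 was highest. PAX3 and MSX1 had an r of 0.6, and PAX6 had no r above 0.32 with any of the others.

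**Figure D3:**
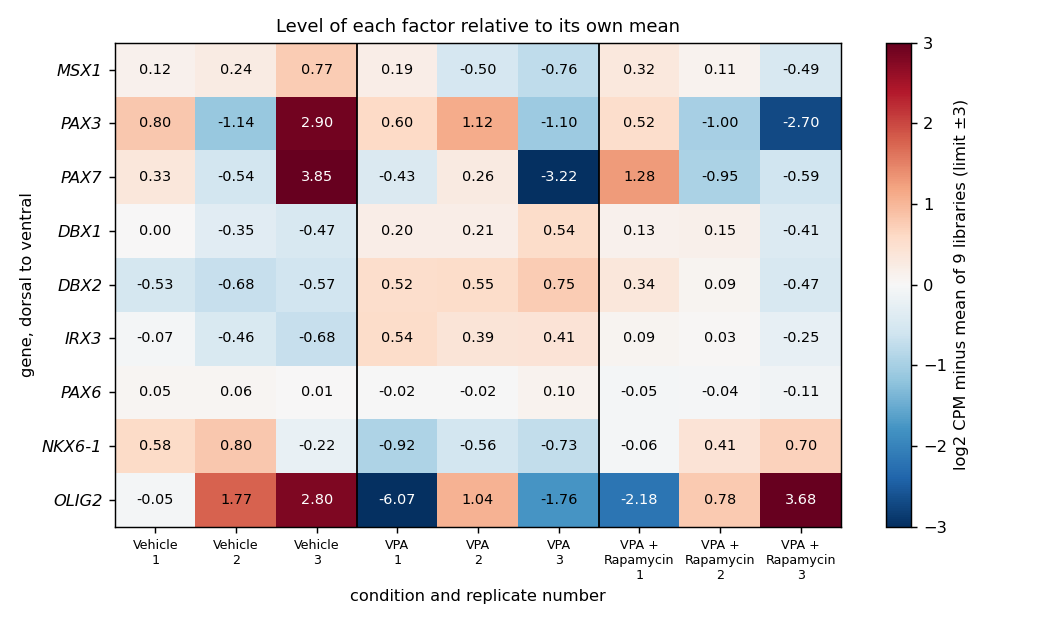
Log2 CPM of each factor in each library minus its mean over the 9 libraries (colour and printed value), with factors from dorsal (top) to ventral (bottom) and libraries by condition and replicate number. DBX1, DBX2 and IRX3 are above their mean in all 3 VPA libraries and NKX6-1 is below it, vehicle replicate 3 stands out for PAX3 (2.90) and PAX7 (3.85), and VPA + Rapamycin replicate 3 for OLIG2 (3.68).

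Among 16734 genes, the pattern most like that of OLIG2 over the 9 libraries was that of OLIG1, its neighbour and paralog, with an r of 0.972. For PAX3 it was ZIC5, a zinc-finger factor of the dorsal neural tube, at 0.947, and for IRX3 it was HS3ST3B1, a heparan sulfate sulfotransferase, at 0.994. DBX1 was most like RPUSD2 (0.971), DBX2 like FAM86EP (0.985), PAX6 like DNAJC9 (0.962), NKX6-1 like AC099489.1 (0.959) and MSX1 like ABCA11P (0.947). With 9 points and this many genes high values arise readily, and no p is given.

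Other factors of the dorsal progenitors and the roof plate were lower in VPA. Of 9 tested genes of that list 4 fell and 0 rose in VPA against vehicle (median log2 fold change -1.15). Of all genes 15.7% were called lower and 16.4% higher in VPA against vehicle. The shares were 3.73% and 3.01% in VPA + Rapamycin against VPA, and 9.22% and 9.81% in VPA + Rapamycin against vehicle. NEUROG1, a proneural factor, fell by 0.88 ± 0.16 on the log2 scale (edgeR adjusted p = 0.00193). OLIG3, a factor of the most dorsal stripes, fell by 3.50 ± 0.69 (edgeR adjusted p = 0.0032). The change of ZIC1 rests on vehicle replicate 3, at -3.88 with it and -0.14 without it (adjusted p = 0.903). Without that library 3 of 9 fell and 2 rose, and the number that fell was 7 without vehicle replicate 1 and 8 without vehicle replicate 2. The summed level of the list was 130, 148 and 338 CPM in the vehicle libraries and 94.3 to 104 CPM in the VPA libraries. With Rapamycin added to VPA, 1 of 9 rose and 1 fell, the latter being LMX1B, a roof plate factor, which fell by 1.15 ± 0.24 (edgeR adjusted p = 0.00677). Against vehicle, 3 of 9 fell in VPA + Rapamycin and 0 rose, a count that was 7 without vehicle replicate 1, 0 without VPA + Rapamycin replicate 1 or 3 and 1 without VPA + Rapamycin replicate 2.

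Of 9 tested factors of the intermediate, ventral and floor plate domains outside the set, 6 fell and 1 rose in VPA against vehicle. In that comparison 15.7% of all genes were called lower and 16.4% higher. The median log2 fold change of the list was -0.74, and its counts were the same without vehicle replicate 3. The number that fell was 3 without vehicle replicate 2, VPA replicate 1 or VPA replicate 2, and 2 without VPA replicate 3. The gene that rose was IRX5, the neighbour of IRX3 in the Iroquois cluster, at 0.67 ± 0.12 (edgeR adjusted p = 0.00183). FOXN4, a factor of progenitors of V2 interneurons, was measured at 726, 825 and 508 counts in vehicle and 204, 190 and 277 counts in VPA, and fell by 1.71 ± 0.20 on the log2 scale (edgeR adjusted p = 0.00017). PRDM12, a factor of the stripe next to that of DBX1 on the ventral side, fell by 0.74 ± 0.16 (edgeR adjusted p = 0.00433). With Rapamycin added to VPA, 3 of 9 rose and 1 fell, where 3.01% of all genes were called higher and 3.73% lower. The gene that fell was IRX5, by 0.52 ± 0.10 (edgeR adjusted p = 0.00261), so it moved as IRX3 did in both comparisons. The 3 that rose were NEUROG2 (0.86), NKX6-2 (1.63) and OLIG1 (3.10), and none of them passed without VPA + Rapamycin replicate 3. The number that rose was also 0 without VPA replicate 3 and 1 without VPA replicate 2. FOXN4 was the only call of 9 in VPA + Rapamycin against vehicle, where 19.0% of all genes were called. It fell by 1.33 ± 0.24 in that comparison (edgeR adjusted p = 0.00411). FOXA2 of the floor plate had 0, 7 and 52 counts in vehicle, 0, 16 and 0 under VPA and 0, 5 and 85 with Rapamycin added, and NKX2-2 of the most ventral progenitors had at most 29 counts, in VPA + Rapamycin replicate 3. Both genes were thus highest in the library with the highest OLIG2.

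Single genes of the signals that pattern the axis changed, with 5 of 12 called in the dorsal list and 3 of 11 in the ventral list in VPA against vehicle, where 32.1% of all genes were called. Of 12 tested genes of the dorsal BMP and WNT list, 4 rose and 1 fell in VPA against vehicle (median log2 fold change 0.31). The ligand BMP6 rose by 1.34 ± 0.29 (edgeR adjusted p = 0.00519) and ID1, a direct target of BMP signals, by 0.72 ± 0.16 (edgeR adjusted p = 0.00573). The number that rose was 2 without vehicle replicate 2 or VPA replicate 1, and the number that fell was 4 without vehicle replicate 1. WNT3 fell by 0.69 ± 0.16 on the log2 scale (edgeR adjusted p = 0.007). None of 11 passed in VPA + Rapamycin against VPA with edgeR, where 3 had an unadjusted p under 0.05, and in VPA + Rapamycin against vehicle 1 rose and 1 fell. Of all genes 6.74% were called in VPA + Rapamycin against VPA and 19.0% in VPA + Rapamycin against vehicle. Of the 11 tested genes of the Sonic hedgehog list, 2 rose and 1 fell in VPA against vehicle, with a median of -0.22. GAS1, a membrane coreceptor of the ligand, rose by 0.69 ± 0.14 (edgeR adjusted p = 0.00444) and fell by 0.55 ± 0.09 on the log2 scale in VPA + Rapamycin against VPA (edgeR adjusted p = 0.00135). GLI1, the target gene that reports hedgehog signalling, rose by 1.75 ± 0.52 (edgeR adjusted p = 0.0249) from 4 to 6 counts in vehicle to 15 to 24 counts in VPA, and lost its call whichever of the 6 libraries was left out (adjusted p = 0.0552 to 0.134). HHIP, a ligand-binding inhibitor, fell by 1.62 ± 0.54 (edgeR adjusted p = 0.0397), and by 1.11 with an adjusted p of 0.165 without vehicle replicate 3. The call was also lost without vehicle replicate 2 (adjusted p = 0.0572), VPA replicate 1 (0.145) or VPA replicate 2 (0.132). SHH itself had 19, 16 and 176 counts in vehicle, 16, 24 and 33 under VPA and 37, 38 and 166 with Rapamycin added. It was highest in replicate 3 of vehicle and of VPA + Rapamycin. It rose by 1.77 ± 0.49 in VPA + Rapamycin against VPA (edgeR adjusted p = 0.0372), and its change was 0.62 without VPA + Rapamycin replicate 3, with a call that was also lost without VPA replicate 1, 2 or 3 (adjusted p = 0.131, 0.109 and 0.0671). No gene of the list passed in VPA + Rapamycin against vehicle with edgeR, where 1 of 10 had an unadjusted p under 0.05.

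Most general neural progenitor genes did not pass the test, as most genes did not, with 32.1% of all genes called in VPA against vehicle. Of 10 tested, 1 rose and 2 fell in VPA against vehicle, with a median of 0.02, and the summed level was 4775 to 5079 CPM in vehicle, 4858 to 4890 CPM in VPA and 4506 to 4937 CPM in VPA + Rapamycin. Without vehicle replicate 3 the counts were 2 and 4. The gene that rose was HES5, a Notch target of progenitors. It was measured at 5309, 4802 and 5144 counts in vehicle, 9963, 8997 and 12275 counts in VPA and 6535, 7635 and 5979 counts in VPA + Rapamycin. Its VPA libraries lay above all others, as did those of DBX2 and IRX3. HES5 rose by 0.95 ± 0.10 on the log2 scale in VPA (edgeR adjusted p = 0.000114) and fell by 0.61 ± 0.09 in VPA + Rapamycin against VPA (edgeR adjusted p = 0.000444). FABP7, a radial glia gene, fell by 0.55 ± 0.08 in that comparison (edgeR adjusted p = 0.000292) and PROM1 rose by 0.46 ± 0.09 (edgeR adjusted p = 0.00327), so 1 rose and 2 fell there as well. Of all genes 3.01% were called higher and 3.73% lower in that comparison.

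Factors of the neurons born from the domains fell in VPA, and part of the list rose when Rapamycin was added. Of 14 tested, 11 fell and 2 rose in VPA against vehicle (median log2 fold change -2.24), and the counts were the same without vehicle replicate 3. Between VPA and VPA + Rapamycin 7 of 13 rose and 0 fell, with a median of 0.71, and 4 rose without VPA replicate 2, VPA + Rapamycin replicate 2 or VPA + Rapamycin replicate 3. Against vehicle 9 of 14 were lower in VPA + Rapamycin and 2 were higher, with a median of -0.94. Without vehicle replicate 3 the 9 became 7, and with VPA + Rapamycin replicate 2 or 3 left out it became 4 or 5. With every library kept, 15.7% of all genes were called lower and 16.4% higher in VPA against vehicle. The shares were 3.73% and 3.01% in VPA + Rapamycin against VPA, and 9.22% and 9.81% in VPA + Rapamycin against vehicle.

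EVX1, the factor of the V0 neurons that come from the DBX1 stripe, was measured at 475, 387 and 498 counts in vehicle, 49, 52 and 151 counts in VPA and 134, 162 and 95 counts in VPA + Rapamycin. Its vehicle libraries lay above all others, and the treated conditions overlapped. EVX1 fell by 2.52 ± 0.33 on the log2 scale in VPA (edgeR adjusted p = 0.000319), while DBX1 rose. It was still lower than in vehicle with Rapamycin, at -1.86 ± 0.19 (edgeR adjusted p = 0.000264).

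SOX14 and GATA2 belong to V2 neurons, which come from progenitors with NKX6-1. SOX14 was measured at 292, 233 and 197 counts in vehicle, 31, 39 and 35 counts in VPA and 113, 86 and 116 counts in VPA + Rapamycin. GATA2 had 564, 433 and 358 counts in vehicle, 85, 63 and 140 under VPA and 188, 251 and 263 with Rapamycin added. For both of them the 3 conditions did not overlap, and VPA + Rapamycin lay between the others. The log2 fold change in VPA was -2.85 ± 0.22 for SOX14 (edgeR adjusted p = 1.56e-05) and -2.32 ± 0.25 for GATA2 (edgeR adjusted p = 0.000101). Between VPA and VPA + Rapamycin they rose by 1.61 ± 0.25 (SOX14, edgeR adjusted p = 0.000793) and 1.32 ± 0.22 (GATA2, edgeR adjusted p = 0.00155). EN1, the factor of V1 neurons, rose by 1.49 ± 0.31 in the same comparison (edgeR adjusted p = 0.00747). Against vehicle, SOX14 was lower with Rapamycin, at -1.24 ± 0.21 (edgeR adjusted p = 0.00322), whereas NKX6-1 gave -0.07. GATA2 was lower as well, at -1 ± 0.19 (edgeR adjusted p = 0.00623).

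**Figure D4:**
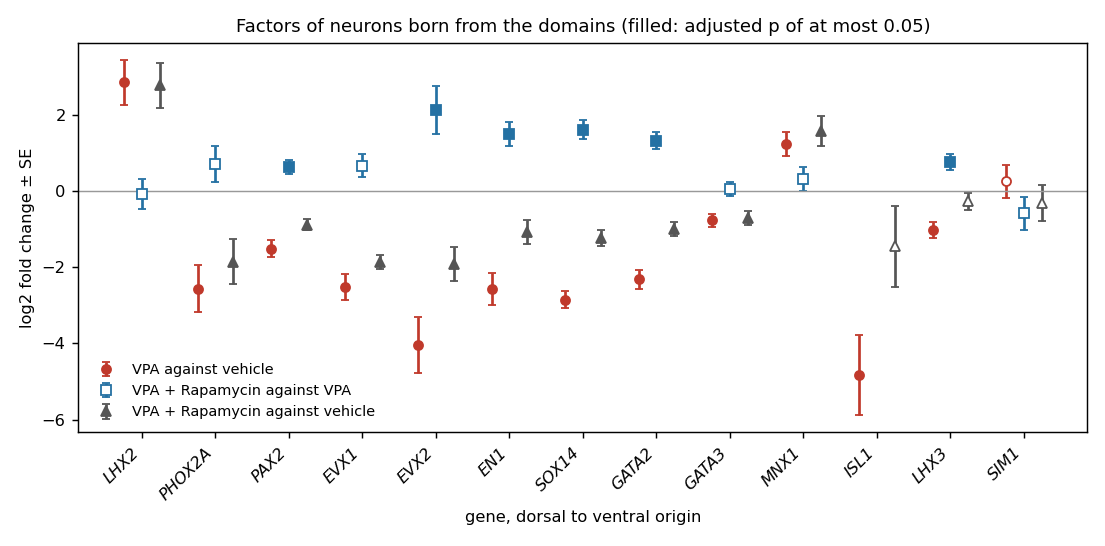
Log2 fold change (vertical axis, bars are ± SE, 3 libraries per condition) of 13 of the factors of neurons born from the domains, in dorsal to ventral order of origin, in the 3 comparisons, with filled points at an adjusted p of at most 0.05 (edgeR). Most VPA points lie below 0, with SOX14 at -2.85 and EVX1 at -2.52, and the VPA + Rapamycin against VPA points of SOX14 and GATA2 lie above 0.

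Markers of other cell types moved with the conditions as well. The summed level of 10 mesenchyme markers was 180 to 352 CPM in vehicle, 635 to 789 CPM in VPA and 307 to 427 CPM in VPA + Rapamycin, the order in which DBX2 and IRX3 were found. Most of this sum came from COL1A1 (mean 125 CPM in vehicle, 270 CPM in VPA) and COL1A2 (72.8 and 320 CPM). Of 9 markers tested, 3 rose (COL1A1, COL1A2 and THY1) and 0 fell in VPA against vehicle, where 16.4% of all genes were called higher and 15.7% lower. PRRX1 (-0.43), COL3A1 (-0.49) and PDGFRA (-1.06) had negative log2 fold changes without a call. PRRX1 and COL3A1 were highest in vehicle replicate 3. In VPA + Rapamycin against VPA 0 rose and 6 fell, where 3.01% of all genes were called higher and 3.73% lower. The 3 became 6 without vehicle replicate 3, and the 6 became 3 without VPA replicate 1, VPA + Rapamycin replicate 2 or VPA + Rapamycin replicate 3. The neural crest list summed to 559 to 588, 521 to 574 and 568 to 596 CPM in the 3 conditions. SOX10, its defining factor and the gene of the edited locus, had 347, 248 and 230 counts in vehicle, 5, 10 and 9 under VPA and 8, 37 and 63 with Rapamycin added. Trunk HOX genes, which mark position along the body axis, fell for 6 of 10 and rose for 0 in VPA against vehicle, and their sum was 543 to 703 CPM in VPA and 616 to 816 CPM in VPA + Rapamycin. The part of these shifts in the levels of the domain factors was not tested.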

How the data were processed

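Messenger RNA of 9 SCO libraries (3 conditions, 3 libraries each) was purified on poly-T beads by the authors, who deposited a table for each pair of conditions. The submitters' processing notes name HISAT2 2.0.5 and featureCounts 1.5.0-p3. The use of strand is not given in the sources used here. Deposited counts are raw reads for each gene, listed for genes with at least 2 reads over the 6 libraries of a table. The deposited signal columns (counts divided by size factors), FPKM, log2 fold changes and p-values of the authors, made with DESeq2, were not used. Gene positions and lengths are those of the tables, on GRCh38, and the positions of 9 of 9 factors equal those of GENCODE release 29.

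Each pair was tested within its own table in R 4.3.3 with edgeR 4.0.16 (TMM factors, filterByExpr defaults, quasi-likelihood F test, Benjamini-Hochberg adjustment over all genes tested, threshold 0.05, no replicate block). The study's DESeq2 (version 1.42.0 here, with limma 3.58.1 loaded by edgeR) was an alternative, as were other normalizations and filters, all 9 libraries in a single fit, a replicate block, protein-coding genes only, a log2 fold change limit of 1, and the fit without each library. Levels are TMM-scaled CPM over the 9 libraries, log2 CPM used a prior count of 1, and intervals and floors cover counting error only. Exact permutation tests cannot give a two-sided p under 0.1. The methods were tested on simulated counts.

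All 10 factors were looked up. Values of some listed genes are not reported here, though list counts, medians and sums include them. Other genes were taken from lists of dorsal and ventral factors, signals, progenitor genes, neuron factors and cell type markers, with at most 4 named per list and comparison, those called with the smallest p. For genes of like pattern those with the highest Pearson correlation were named. FOXA2, NKX2-2, OTX2, SHH, PRRX1, COL3A1, PDGFRA and the counts of EN2 were added after their values were seen. So were the library values of genes named elsewhere, and the list counts and medians without single libraries. The factors and the lists were chosen with earlier results of these data known.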

Additional observations from a re-analysis of the deposited data

How the results depend on the processing

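Of the alternatives run for the single factors, 328 kept direction and side of the threshold, 36 passed it newly, 11 lost it and 9 reversed. For other named genes 1282 kept both, 204 lost the threshold and 0 reversed. Against vehicle, the VPA value of PAX6 reversed to 0.01 with upper-quartile normalization and to 0 without VPA replicate 1, and that of PAX3 to 0.31 without vehicle replicate 3. Without a library these values ran from -0.06 to 0 for PAX6 and from -1.78 to 0.31 for PAX3. In VPA + Rapamycin against vehicle, OLIG2 reversed to -0.42 with the replicate block, -0.10 without vehicle replicate 1 and -1.98 without VPA + Rapamycin replicate 3, NKX6-1 to 0.14 without vehicle replicate 2 and 0.11 without VPA + Rapamycin replicate 1, and PAX7 to 0.32 without vehicle replicate 3. Their ranges without a library were -1.98 to 1.17, -0.32 to 0.14 and -3.45 to 0.32.

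The number of factors called in VPA against vehicle (4) was 8 without a filter on low counts, 2 with a log2 fold change of at least 1, and 3 to 7 when leaving out a library, with 7 without vehicle replicate 1. In VPA + Rapamycin against VPA (3) it was 6 without the filter, 1 with all 9 libraries in a single fit, 1 with the fold limit, and 2 to 6 when leaving out a library, with 6 without VPA + Rapamycin replicate 1 and 5 without VPA + Rapamycin replicate 2. In VPA + Rapamycin against vehicle (0) it was 1 with DESeq2, upper-quartile normalization or all 9 libraries, 3 without the filter, and 0 to 2 when leaving out a library. The share of all genes called in these settings or with a replicate block is not given here, so the changes in count are not read as particular to the factors. With the replicate block the counts were 5, 6 and 2, with new calls for OLIG2 (-2.91) in VPA against vehicle, for PAX3 (-1.18), DBX1 (-0.35) and OLIG2 (2.39) in VPA + Rapamycin against VPA, and for DBX2 (0.58) and IRX3 (0.35) in VPA + Rapamycin against vehicle. Libraries of the same number shared little (mean correlation of deviations 0.014, 0.03 and 0.116), so, with codes that are shared but tied to no named clone, the numbers were not taken to pair the samples, and not every library correlated best with its own number. Per-length ranks held for 3 of 9 factors without division by length. The causes were not tested. PAX7 had at most 22 counts outside vehicle replicate 3, which limits its precision.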

Other observations

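Of 10 tested pan-neuronal genes, 5 fell and 0 rose against vehicle (median log2 fold change -0.52), among them ELAVL4, an RNA-binding protein of young neurons, which fell by 1.20 ± 0.17 on the log2 scale (edgeR adjusted p = 0.000508). Without vehicle replicate 1 the number that fell was 8, and it was 3 without vehicle replicate 2, VPA replicate 1 or VPA replicate 3. In VPA + Rapamycin against VPA 2 of 10 rose and 0 fell (0 rose without VPA replicate 2 or VPA + Rapamycin replicate 3), and against vehicle 3 fell and 0 rose. Of all genes 15.7% were called lower in VPA against vehicle and 9.22% in VPA + Rapamycin against vehicle. In VPA + Rapamycin against VPA 3.01% of all genes were called higher. The summed level of the list was 1572, 2090 and 2749 CPM in the vehicle libraries, 1436 to 1557 CPM in VPA and 1509 to 1646 CPM in VPA + Rapamycin.

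Among neuromesodermal progenitor markers, NKX1-2 fell by 1.70 ± 0.29 in VPA (edgeR adjusted p = 0.00131) and rose by 1.26 ± 0.26 in VPA + Rapamycin against VPA (edgeR adjusted p = 0.00722). Of 4 tested genes of that list 2 fell in VPA and 0 rose, where 15.7% of all genes were called lower and 16.4% higher. Of 4 tested paraxial mesoderm and muscle markers 2 rose in VPA and 0 fell. The muscle determination factor MYOD1 had 1, 0 and 0 counts in vehicle, 26, 17 and 14 under VPA and 9, 17 and 7 with Rapamycin added. Of 4 tested forebrain, midbrain and eye markers 1 rose and 2 fell in VPA, among them LHX5, which fell by 1.55 ± 0.17 (edgeR adjusted p = 9.83e-05). LHX5 had 879, 763 and 1105 counts in vehicle, where the other markers of the list, EN2 apart, had at most 13. Its fall is therefore not read as a change of forebrain, midbrain or eye identity.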
